A study of Mus musculus with 2 samples.

Results

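The ISG15 conjugation system is described here in mouse macrophages that had met Lipid A before and met it again. Its 5 genes, Isg15, Uba7, Ube2l6, Herc6 and Usp18, were chosen by gene symbol out of 55536 annotated genes, of which 22028 are protein-coding, and all 5 were found in both libraries. The rule uses symbols and no measured value, though the genes were proposed with earlier results of these data known.

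Isg15 encodes a ubiquitin-like protein that interferon and bacterial or viral products induce. Like ubiquitin, it is attached to lysines of other proteins through a chain of enzymes: the E1 enzyme Uba7 activates it, the E2 enzyme Ube2l6 (UBCH8) carries it, and an E3 ligase transfers it to the target. In mice that ligase is chiefly Herc6. The protease Usp18 removes ISG15 again, and apart from that activity it binds the interferon receptor chain IFNAR2 and dampens type I interferon signalling. In macrophages, ISG15 is also found unattached, and it can be released from the cell.

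The cells were C57BL/6J macrophages grown from bone marrow. The description in the labels says that they received Lipid A, the membrane anchor of lipopolysaccharide, at 100 ng/ml for 12 h, then went 12 h without it, and received 100 ng/ml again for 300 min before RNA was taken. In the treatment field the agent is instead lipoprotein A, typed as a protein, and which of the names is right cannot be told from the labels. There were 2 libraries of polyA-selected RNA, biological replicates 1 and 2 of this 1 group, with one donor identifier and separate biosample identifiers, so their spread may be smaller than that between animals. The labels record neither age nor sex. No untreated or singly treated cells were analysed here, so every value below is a level or a difference between the 2 libraries, with no test, and none of them measures a response to Lipid A.

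The 250 bases before the start of Isg15 are shown because, of the 4 members with a promoter window in the reference table (Usp18 has no entry), it alone held the motif searched. The motif searched is the interferon response element that interferon regulatory factors bind, spelled as GAAA, any 2 bases and GAAA, on both strands. Capitals mark 3 overlapping copies on the gene's strand, a run of 22 bases from -78 to -57 counted from the RefSeq start. The stretch is chr4:156200819-156201068, minus strand, on GRCm38.p6, from RefSeq.
Isg15 promoter: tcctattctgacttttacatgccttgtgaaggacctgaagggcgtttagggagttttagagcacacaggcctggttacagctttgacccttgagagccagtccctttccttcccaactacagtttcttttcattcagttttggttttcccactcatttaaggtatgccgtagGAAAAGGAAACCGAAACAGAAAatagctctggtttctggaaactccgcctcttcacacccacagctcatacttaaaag

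A stretch of Uba7 is shown because, in the first quantification and alone among the members, over 50% of this gene's TPM in each library was assigned to transcripts that are not annotated as protein-coding. In the second quantification that held in replicate 1 but not in replicate 2. Intron 15 of its coding transcript Uba7-201 (chr9:107979459-107979543, plus strand, mm10, 85 nt, 51.8% G and C) lies within the coding region. It is left in by 3 annotated transcripts. Both forms are given from 30 bases before to 30 bases after the intron, with the intron in capitals.
Uba7 spliced: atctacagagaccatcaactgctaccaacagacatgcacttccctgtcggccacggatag
Uba7 intron kept: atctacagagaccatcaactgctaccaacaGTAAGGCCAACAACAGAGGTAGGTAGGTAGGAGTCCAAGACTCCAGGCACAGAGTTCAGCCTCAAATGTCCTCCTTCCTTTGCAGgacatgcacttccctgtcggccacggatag
The intron begins with GT and ends with AG, the usual splice site letters. Read from the start codon of Uba7-201, 621 full codons come before it. In that frame a stop codon, TAA, begins at the second base of the intron. The transcripts that keep it are annotated without a coding sequence, so this reading is of the letters alone.

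The libraries held 50503159 (replicate 1) and 46342331 (replicate 2) expected counts over all genes. The macrophage label was checked with 10 markers, whose median was 579 TPM (a level per transcript length, scaled to the same total in each library), and 9 of them reached 100 TPM in both. Their levels ran from Mertk at 78.5 TPM to Lyz2 at 10751 TPM. The 36 markers of 9 other cell types had a median of 0.14 TPM, and their sum was 130 TPM (replicate 1) and 102 TPM (replicate 2). Of these, 27 stayed under 1 TPM in both libraries and 5 had no count in either, among them Ly6g of neutrophils and all 3 erythroid markers. The highest was Tcf4, listed for plasmacytoid dendritic cells, at 43.1 and 45.4 TPM in replicates 1 and 2. The 7 neutrophil markers summed to 66.9 and 4.45 TPM, led by S100a9 at 37.9 and 2.23 TPM. The 4 endothelial markers summed to 15.6 and 49.3 TPM, led by Kdr at 11.0 and 41.6 TPM, while Cdh5 was at 1.38 and 0.87 TPM and Pecam1 at 1.96 and 2.23 TPM. The part of such cells in the differences between libraries given below was not tested.

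All 5 genes were abundant. Each reached 100 TPM in both libraries, as did 5.42% of protein-coding genes. Isg15 stood highest and Herc6 and Uba7 lowest, and the 5 together summed to 4303 TPM in replicate 1 and 4551 TPM in replicate 2. Every mean below is followed by the SD of the 2 libraries (n = 2), and in bulk RNA such a level cannot tell more cells with a transcript from more transcript per cell.

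Isg15, the modifier itself (chromosome 4, 156199424 to 156200818, minus strand, mm10), had 3088 TPM (replicate 1) and 3151 TPM (replicate 2), or 3120 ± 44.5 TPM. It rested on 54905 and 51778 counts. It ranked 30 and 29 among protein-coding genes, with 0.132% of them above its mean. The libraries were close for this gene, and the SD was 1.43% of the mean. Its single annotated transcript means that no choice between transcripts enters the value. The genes nearest to it in level over both libraries were Eef1a1, a translation elongation factor, at 2975 and 2926 TPM, and Ly6e, a surface protein also known as interferon-stimulated, at 3131 and 3467 TPM.

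Among the enzymes, the E2 stood above the E1 and the E3. Ube2l6 (chromosome 2, 84798828 to 84810335, plus strand) was at 326 and 367 TPM in replicates 1 and 2, or 346 ± 29.1 TPM, with 15089 and 15576 counts. Uba7 (chromosome 9, 107975505 to 107984060, plus strand) was at 193 and 170 TPM, or 182 ± 16.4 TPM, with 14111 and 11457 counts. Herc6 (chromosome 6, 57581000 to 57664632, plus strand) was at 184 and 156 TPM, or 170 ± 19.6 TPM, with 27945 and 20281 counts. The library values of Uba7 and Herc6 overlapped, while those of Ube2l6 lay above both. On this scale 1.95% of protein-coding genes exceeded Ube2l6, 3.49% exceeded Uba7 and 3.71% exceeded Herc6. The nearest genes in level were Cflar and Rhoa for Ube2l6, Gsdmd and Myd88 for Uba7, and Rab1a and Cp for Herc6. Gsdmd encodes the pore-forming protein of pyroptosis and Myd88 the adaptor of Toll-like receptors. Nearness over 2 libraries says little more than that the levels were alike.

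Usp18, the protease (chromosome 6, 121245906 to 121270917, plus strand), had 511 TPM (replicate 1) and 706 TPM (replicate 2), or 609 ± 138 TPM, with 27695 and 35140 counts. It was the second highest of the 5 in each library and the one whose libraries lay furthest apart, with an SD of 22.7% of the mean. Its nearest genes in level were Eif4g2, a translation factor, and Hspa5, a chaperone of the endoplasmic reticulum. In both libraries Usp18 lay above Ube2l6, by 0.65 and 0.94 on the log2(TPM + 1) scale.

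**Figure D1:**
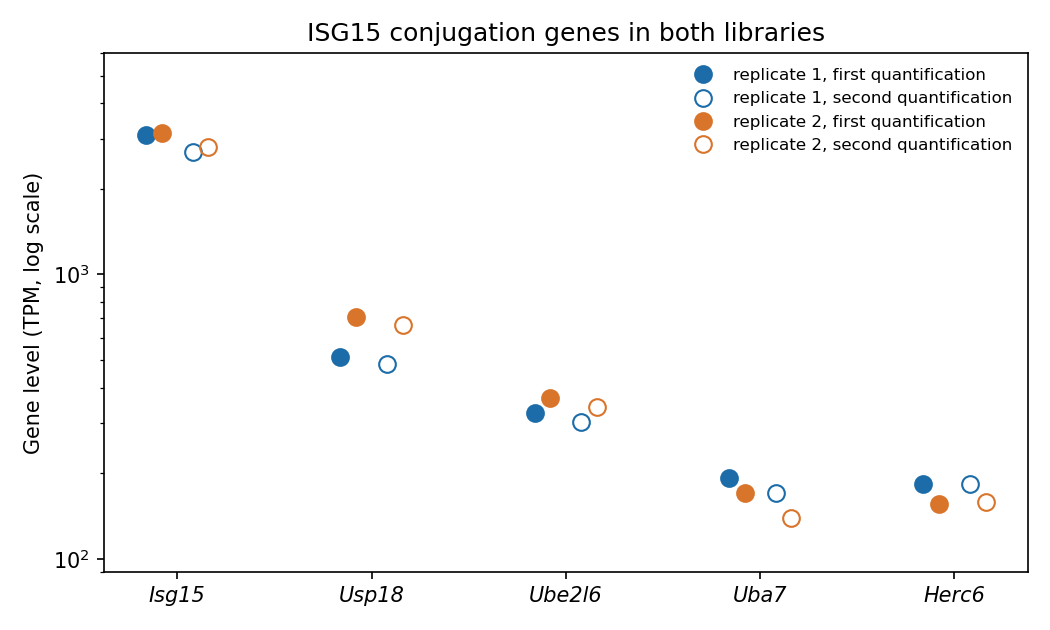
Levels of the 5 genes in TPM on a log axis, 1 point per library and quantification (filled for the first, open for the second; blue for replicate 1, orange for replicate 2). Isg15 sits between 2702 and 3151 TPM in all 4 points, the Usp18 points of the libraries are the most spread, and Uba7 and Herc6 overlap.

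Genes that overlap a member had few counts. Gm20661, which overlaps Uba7 on the same strand, had 5.09 and 0 counts. Gm45193, which overlaps Herc6 on the same strand, had 43 and 58.8 counts. On the opposite strand Gm19244 (Herc6) and Gm44148 (Usp18) had at most 2 counts in a library. How strand was handled is not given in the sources used here. These are only the counts assigned to those genes.

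The modifier exceeded its enzymes several-fold within each library. On the log2(TPM + 1) scale, Isg15 lay above Uba7 by 4.10 ± 0.15, above Herc6 by 4.19 ± 0.19 and above Ube2l6 by 3.17 ± 0.10. In linear terms its TPM was 16 and 18.5 times that of Uba7, 16.8 and 20.1 times that of Herc6, and 9.48 and 8.59 times that of Ube2l6. These are whole-gene levels, and the protein-coding transcript of Uba7 alone was further below Isg15, at 63.8 and 80.1 TPM. On the log2 scale the whole-gene gap from Isg15 to Usp18 was narrower, 2.59 in replicate 1 and 2.16 in replicate 2, or 2.37 ± 0.31. Uba7 lay above Herc6 by 0.09 ± 0.04, but in the second quantification, whose tables the deposited README lists as derived from the read files, the order was the other way, with means of 155 and 170 TPM. The order of these 2 genes therefore hangs on the quantification.

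The 5 genes did not differ between the libraries in one direction. The log2 ratio of replicate 2 over replicate 1, on scaled counts, was 0.46 for Usp18, 0.16 for Ube2l6, 0.03 for Isg15, -0.18 for Uba7 and -0.35 for Herc6. Exact 95% counting intervals ran from 0.44 to 0.48 for Usp18 and from -0.37 to -0.32 for Herc6. Counting error was thus smaller than these 2 differences, and with 1 pair of libraries no biological spread can be set beside them. None of the 5 was 2-fold apart. Over the 12543 genes compared, 2.3% were 2-fold or more higher in replicate 2 and 1.91% in replicate 1. As many as 19.7% of these genes lay at least as far apart as Usp18, 29.8% as far as Herc6 and 91.7% as far as Isg15.

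**Figure D2:**
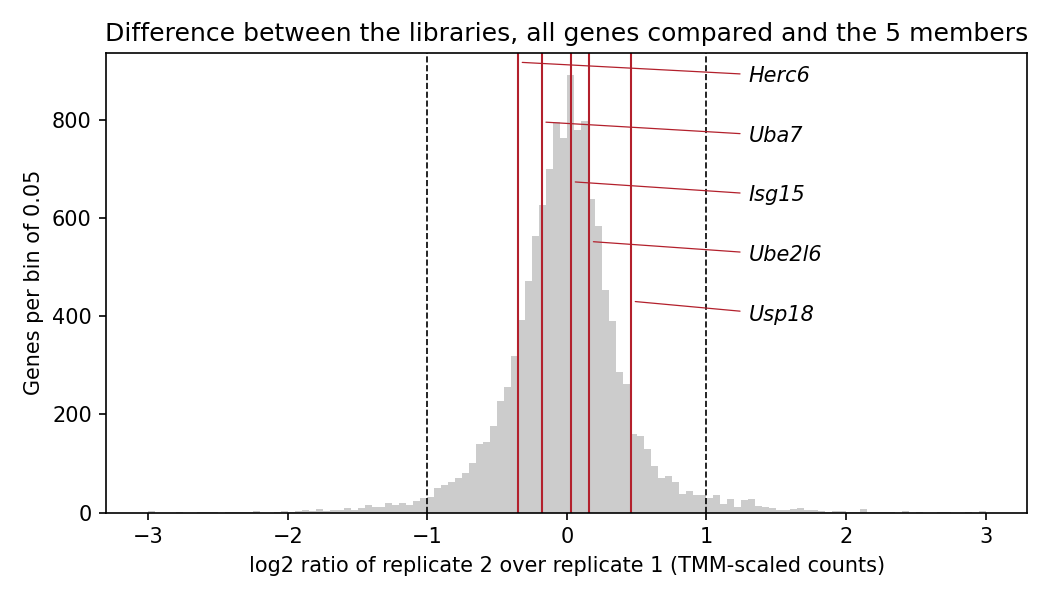
Histogram of the log2 ratio of replicate 2 over replicate 1 for the 12543 genes compared (grey bars, genes per bin, with values beyond 3 in the end bins), with red lines at the 5 genes and dashed lines at 2-fold. Herc6 and Uba7 fall left of 0, Isg15 next to 0, and Ube2l6 and Usp18 right of it, all inside the dashed lines.

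Other members of the ubiquitin family give a scale for these levels. Of 9 other E1 enzyme genes, which activate ubiquitin, SUMO, NEDD8 and other modifiers, none exceeded Uba7 or any other of the 5 genes. Their median was 27.6 TPM, from Mocs3 at 3.84 TPM to the ubiquitin E1 Uba1 at 126 ± 12.3 TPM. Uba7 lay above Uba1 by 0.72 in replicate 1 and 0.34 in replicate 2 on the log2(TPM + 1) scale. This order did not hold for protein-coding transcripts, as given further on.

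E2 enzyme genes were more abundant as a list. Of 12, 7 reached 100 TPM in both libraries, the median was 125 TPM, and only Ube2d3, a broadly acting ubiquitin E2, at 411 ± 1.24 TPM, exceeded Ube2l6. The lowest was Ube2e2 at 3.91 ± 2.20 TPM. Ube2l3 (UBCH7), the closest relative of Ube2l6 and an E2 for ubiquitin, was at 224 and 245 TPM. Ube2l6 exceeded it by 0.56 ± 0.03 on the log2(TPM + 1) scale.

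Of the 10 other ligases and regulators of ISG15, 4 reached 100 TPM, with a median of 33.8 TPM. The highest was Stat2 at 447 ± 30.7 TPM, the interferon signal transducer through which Usp18 reaches the receptor. The lowest was Herc3 at 1.46 ± 0.304 TPM, a relative of Herc6. Herc6 exceeded Herc3 by 6.13 ± 0.34 and Herc4, another relative, by 2.53 ± 0.11 on the log2(TPM + 1) scale. In the second quantification the whole Herc3 gene was at 4.98 and 3.35 TPM, with 1.16 and 1.59 TPM in protein-coding transcripts.

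None of 6 other deubiquitinases reported to act on ISG15 reached 100 TPM in both libraries. They ran from Usp13, with 0 counts in both libraries, to Usp14, a protease of the proteasome, at 64.4 ± 12.2 TPM. For Usp13, the upper limit that a count of 0 allows is 3 counts, which is 0.0594 CPM (per the library's summed counts) for replicate 1 and 0.0647 CPM for replicate 2. Usp18 exceeded Usp14 by 3.22 ± 0.06 on the log2(TPM + 1) scale.

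Among 17 other genes for ubiquitin and ubiquitin-like modifiers the median was 144 TPM, and the lowest was Ubd (FAT10) at 0.37 and 0.05 TPM. Ubb, which encodes a chain of ubiquitin units, was at 1180 and 1373 TPM, and Rps27a, which encodes ubiquitin fused to a ribosomal protein, at 685 and 591 TPM. On the log2(TPM + 1) scale Isg15 exceeded Ubb by 1.29 ± 0.13 and Rps27a by 2.29 ± 0.17. In the second quantification Ubb was at 1298 and 1521 TPM and Rps27a at 592 and 501 TPM, both below the 2702 and 2799 TPM of Isg15.

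Genes around the system were expressed as well. Of 15 reported ISG15 targets, 6 reached 100 TPM in both libraries, and the lowest was Plcg1 at 2.25 ± 0.573 TPM. Of 11 genes of interferon signalling, 5 did so. The 11 ran from Ifnb1, the interferon beta gene, at 11.3 and 5.91 TPM to Irf7, a transcription factor that interferon induces, at 2212 ± 164 TPM. Among 27 other interferon-stimulated genes, 26 reached 100 TPM, with a median of 621 TPM against 346 TPM for the 5 genes. Only 3 of these, Cxcl10, Ifitm3 and Rsad2, exceeded Isg15. By contrast 15 exceeded Usp18, 20 exceeded Ube2l6, and 25 exceeded Uba7 and Herc6. The lowest was Oas2 at 65.5 ± 11.7 TPM and the highest Cxcl10, a chemokine, at 6815 ± 242 TPM. Between libraries, 12 of the 27 were higher in replicate 2 and 15 in replicate 1, with a median log2 ratio of -0.01, and the median of all genes compared was 0.00.

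**Figure D3:**
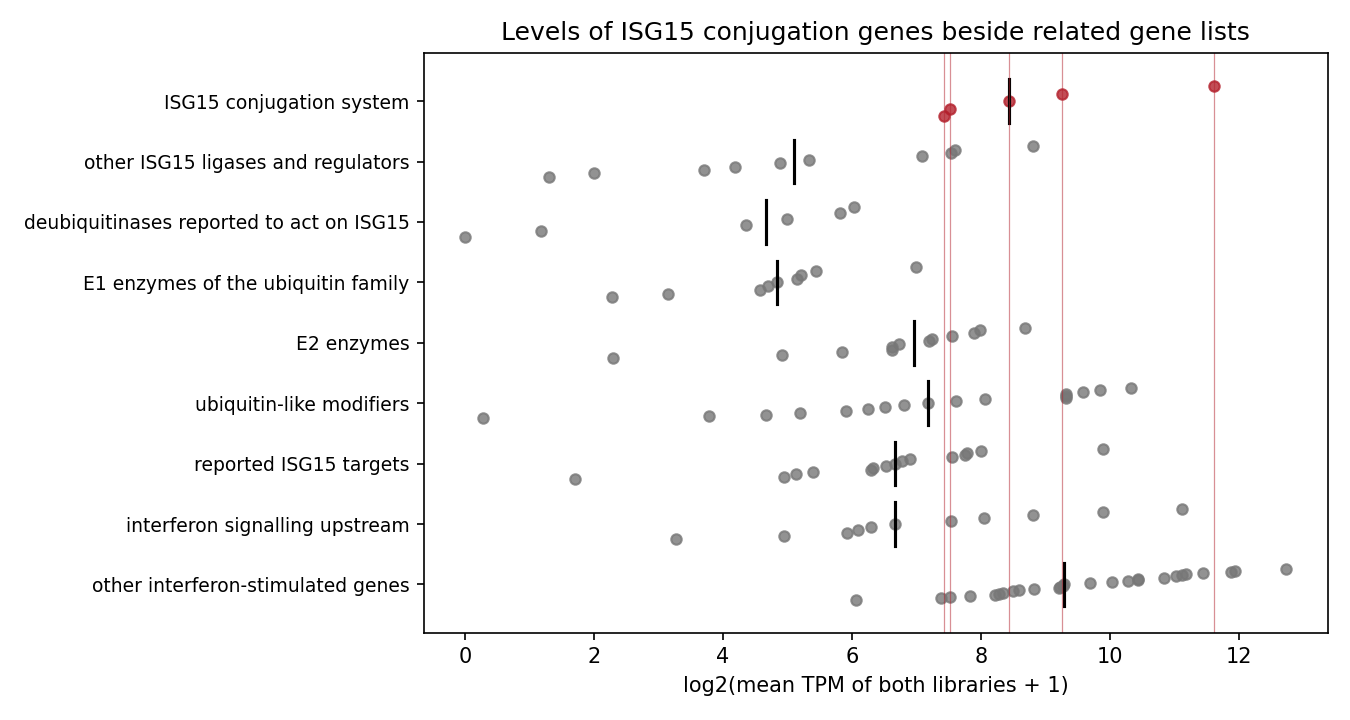
Each point is 1 gene, placed by log2(mean TPM of both libraries + 1), first quantification, with 1 row per gene list, black bars at list medians and red lines at the 5 genes. Of the other interferon-stimulated genes 3 lie to the right of Isg15, and the other E1 enzyme genes lie to the left of all 5 red lines.

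The transcripts behind the levels differed among the 5 genes. Isg15 has 1 transcript, which is protein-coding. Protein-coding transcripts held 99.3% and 99.2% of the TPM of Ube2l6 and 99.1% and 99.3% of that of Usp18, in replicates 1 and 2. For Herc6 they held 88.8% and 82.3%. For Uba7 they held only 33.0% and 47.1%. Among protein-coding genes at 10 TPM or more with several transcripts, 5.46% of 5656 had under 50% in both libraries, and 1 of the 4 such members, Uba7, was among them. The other 7 E1 enzyme genes at that level all had more, from 92.7% in Nae1 upward, and Uba1 had 97.4% and 98.3%. Other lists did hold genes with a mean under 50%: 1 of 11 E2 enzyme genes (Ube2n, 10.7%), 1 of 15 modifier genes (Ufm1, 30.5%), 2 of 14 targets (Ube2n again and Becn1, 14.4%) and 2 of 26 other interferon-stimulated genes (Oasl2, 31.7%, and Mx1, 41.0%).

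Uba7 has 15 annotated transcripts and only Uba7-201 is protein-coding. That transcript had 63.8 TPM (replicate 1) and 80.1 TPM (replicate 2), on 6790 and 7794 counts. The 10 transcripts annotated as retained introns summed to 105 TPM in replicate 1 and 71.7 TPM in replicate 2, on 5618 and 2783 counts. The coding transcript was therefore higher in replicate 2 while the gene as a whole was lower. On scaled counts the log2 ratio of replicate 2 over replicate 1 was 0.32 for Uba7-201 and -0.90 for the retained-intron transcripts. In the second quantification these ratios were 0.32 and -0.92. Not all retained-intron transcripts fell: 7 of the 10 had lower TPM in replicate 2 in the first quantification and 9 in the second. The uncertainty of the authors' model for Uba7-201, given as a posterior SD, was 154 and 122 counts, small beside the difference of this transcript between the libraries.

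How large the coding share of Uba7 appears depends on the scale. By expected counts it was 48.1% in replicate 1 (95% Clopper-Pearson interval 47.3 to 48.9) and 68.0% in replicate 2 (67.2 to 68.9). These intervals cover counting error only. They leave out the error of assigning counts among the transcripts, for which the posterior SD of Uba7-201 was 154 and 122 counts. By TPM of the second quantification the coding share was 36.1% and 55.5%. Much of the gap between scales lies in one retained-intron transcript of 503 nt. It held 21.6% and 20.0% of the gene's TPM but only 366 and 279 of its counts, since TPM divides by length. Its share in the second quantification was 9.41% and 5.69%.

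Counting protein-coding transcripts alone put Uba7 below Herc6 in both libraries. In the second quantification it was already below Herc6 at the gene level. Isg15 stayed at 3120 ± 44.5 TPM, Usp18 was at 604 ± 138 TPM, Ube2l6 at 344 ± 28.8 TPM and Herc6 at 146 ± 24.7 TPM. In the first quantification Uba7 came last at 72.0 ± 11.5 TPM, with 63.8 and 80.1 TPM against 164 and 129 TPM for Herc6. It then lay below Uba1, whose coding transcripts were at 114 and 132 TPM. The same order held in the second quantification, with 69.4 ± 10.9 TPM for Uba7, 143 ± 24.5 TPM for Herc6 and 118 ± 12.2 TPM for Uba1.

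**Figure D4:**
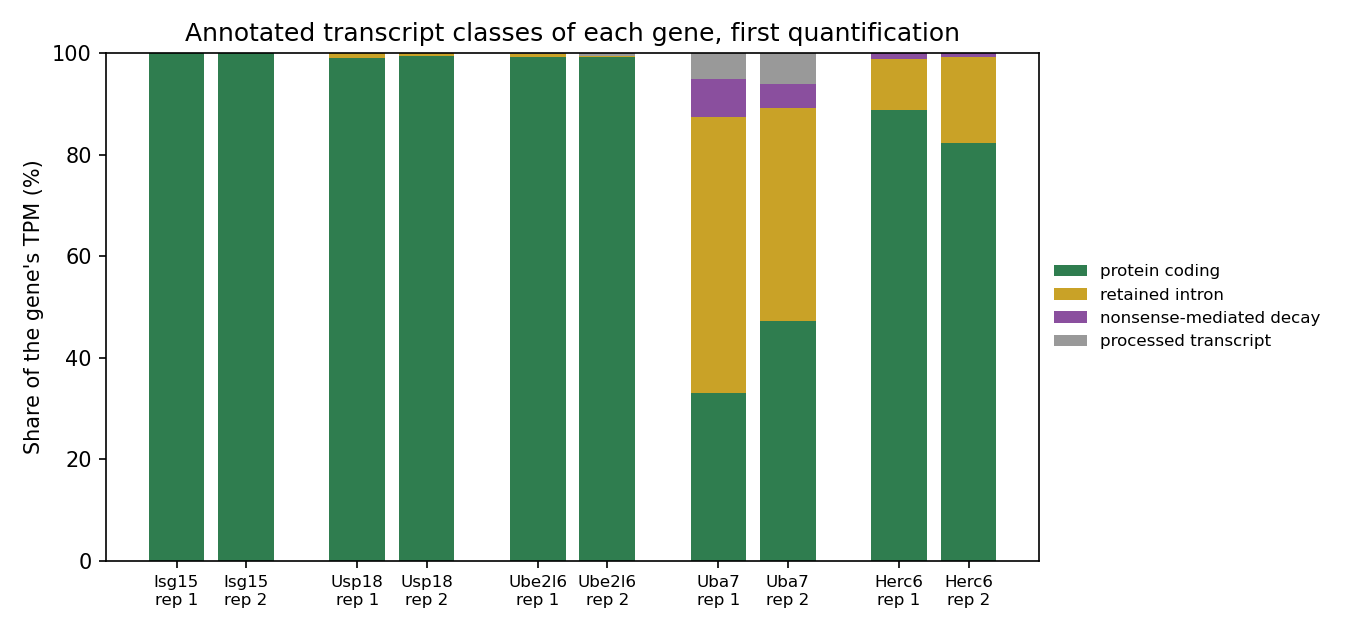
Share of each gene's TPM by annotated transcript class, as stacked bars from 0 to 100%, 1 bar per library, first quantification. Protein-coding transcripts (green) fill almost the whole bar for Isg15, Usp18 and Ube2l6, most of it for Herc6 and under 50% for Uba7, where retained-intron transcripts (yellow) take more in replicate 1.

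Retained-intron transcripts took 54.5% of Uba7 TPM in replicate 1 and 42.2% in replicate 2, and 10% and 16.9% of Herc6 TPM. The 2 genes thus moved in opposite directions between the libraries. Such a share was 10 points or more higher in replicate 1 for 2.75% of the 3965 genes that have one, Uba7 among them, and in replicate 2 for 2.04%, with none of the members. Across these genes the median share was 2.49% in replicate 1 and 1.89% in replicate 2, and 64.6% of genes were higher in replicate 1. Uba7 went the way of most genes and Herc6 did not. By expected counts the Uba7 shares were 39.8% and 24.3%, and those of Herc6 were 4.14% and 5.13%. Most of the Herc6 difference lay in one transcript of 1084 nt, with 116 counts in replicate 1 and 394 in replicate 2. The part of RNA quality or of unspliced RNA in either difference was not tested.

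Along Uba7, 10 of the 23 introns of Uba7-201 are left in whole, within 1 exon, by at least 1 annotated transcript. For each, the kept share is the TPM of transcripts that keep the intron over that of transcripts that keep it or splice it as Uba7-201 does. All 10 shares were higher in replicate 1 than in replicate 2, in both quantifications, running from 2.18% to 22.1% in replicate 1 and from 0.256% to 14.3% in replicate 2. The introns share transcripts, so these are not 10 separate measurements. Intron 15, printed above, had the highest share, 22.1% and 14.3%, and 23.8% and 15.6% in the second quantification. Intron 8 followed at 19.1% and 12.9%, and was the highest in the second quantification at 25% and 17%. Intron 20 was at 15.5% and 9.97%. The other 13 introns are kept by no annotated transcript, so their retention could not be measured from these tables.

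**Figure D5:**
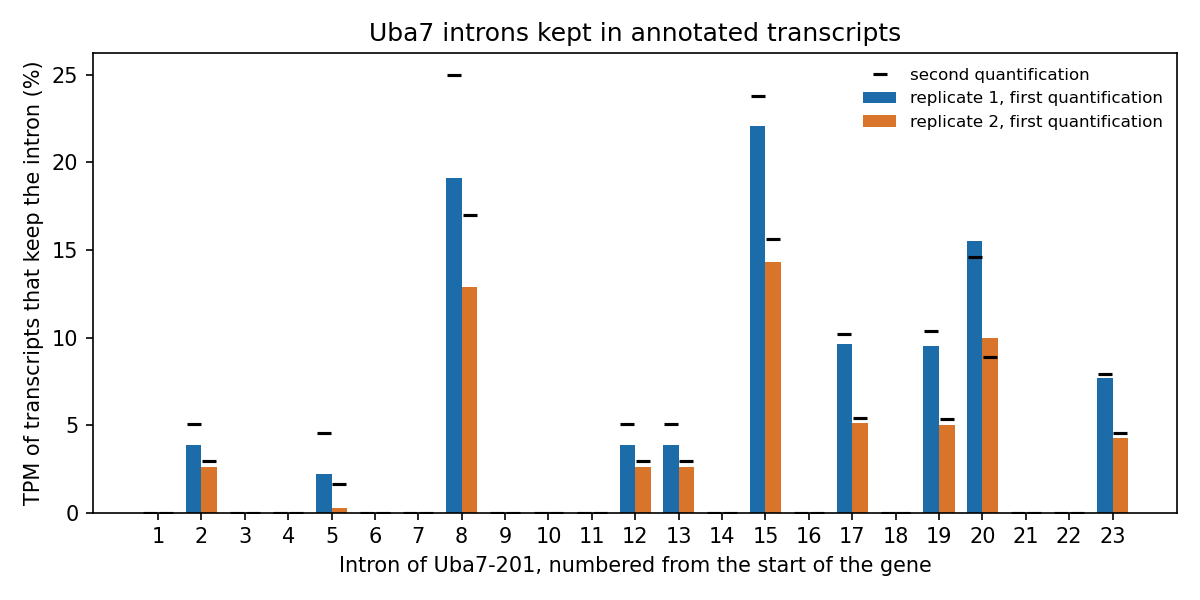
Share of TPM in transcripts that keep each of the 23 introns of Uba7-201, in percent (bars, replicate 1 in blue and replicate 2 in orange, first quantification; black dashes, second quantification). Introns at 0 are kept whole by no annotated transcript. The blue bar is the taller in all 10 others, and introns 8, 15 and 20 are the highest.

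The promoters of the members differed in the interferon response element. RefSeq windows of 300 bases, from 250 before to 50 after the start, were found for 4 of the 5 genes: Isg15, Uba7, Ube2l6 and Herc6. Isg15 alone held the motif as spelled above, which 3.44% of all 32851 windows hold. It held 3 copies, and only 5 windows (0.0152%), its own among them, hold 3 or more. With the first letter dropped, so that the motif reads AAA, any 2 bases and GAAA, 10.6% of windows hold it, and so do Isg15 and Uba7. Every strict match is also a loose one. The loose match of Uba7 is on the opposite strand, and its site is shown with the match in capitals (chr9:107975532-107975556, plus strand, GRCm38.p6).
Uba7 site: cagtctagTTTCACTTTtggtttcc
The GENCODE start of Uba7 lies upstream of the RefSeq start used here, so this site falls inside the GENCODE gene. Neither spelling matched in the windows of Ube2l6 and Herc6, which says only that these letters are not there.

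Among genes of the series with a window, the share with the strict motif was higher at higher levels. It was 3.94% of all 20595 such genes, 4.29% of those at 1 TPM or more, 10.4% at 100 TPM or more and 18.0% at 500 TPM or more, in both libraries. Of the other interferon-stimulated genes with a window, 11 of 19 (57.9%) held it, with at most 2 copies each. These shares describe sequence letters beside levels, and no binding was measured.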

How the data were processed

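PolyA-selected RNA from 2 libraries of 1 group was analysed. The first quantification is a deposited gene table and transcript table per library on mm10 and GENCODE M21, per the README deposited with each sample. Its expected counts, posterior SDs, TPM, FPKM and isoform percent values are the authors', per the file headers. The second quantification is a deposited transcript table of estimated counts and TPM, summed per gene. Aligner, quantifiers and strand handling: not given in the sources used here. Entries that are no gene held 0.0631% and 0.0676% of counts and were left out.

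Expected counts were rounded and scaled with TMM factors in edgeR 4.0.16 (R 4.3.3) after filterByExpr, which kept 12543 genes, with a prior count of 0.5. DESeq2 1.42.0 gave alternative size factors. Log2 levels used a pseudocount of 1 TPM. Counting intervals are exact, at 95%, and cover counting error only. Other steps used Python 3.11.15 (NumPy 2.4.6, pandas 2.3.3, SciPy 1.17.1, matplotlib 3.10.9). Promoter windows came from a RefSeq table on GRCm38.p6, matched by symbol.

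The members, the 8 gene lists and the marker lists were chosen with earlier results of these data known. Named genes are the 5 members, the highest and lowest gene of each list, each member's counterpart and its 2 nearest protein-coding genes by distance of log2(TPM + 1). Genes overlapping a member, Tcf4, S100a9, Kdr, Cdh5, Pecam1, Ifitm3, Rsad2, Becn1, Mx1, other genes under 50% coding and single transcripts and introns were named after their values were seen. Some genes of the lists are not reported here. Alternatives were another quantification, rescaled FPKM, other scaling, filters, pseudocounts, count shares, motif windows and each library alone.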

Additional observations from a re-analysis of the deposited data

How the results depend on the processing

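No paired analysis was possible because the series has 1 group, whose 2 libraries are replicates of each other. Of 69 values recomputed under other settings, 53 stayed, 16 moved and none changed sign, which only the log2 ratios could do. Staying meant lying within the spread or counting interval of the value reported, or within 1.5 times a count. For levels, leaving out 1 of 2 libraries always shifts the mean by less than their SD, and rescaled FPKM is TPM by construction. The levels under those settings could therefore only stay, and they say nothing on robustness. The share of the single Isg15 transcript likewise could only stay. A prior count of 5 is too small beside these counts to move a log2 ratio between libraries. Of 5 added after seeing the data (other measures of the retained-intron shares, and the second quantification for genes under 50% coding), 3 stayed and 2 moved. In the second quantification Isg15 came to 2751 TPM and Uba7 to 155 TPM, the log2 ratio between libraries to 0.06 for Isg15 and -0.32 for Herc6, and the leading transcript's share to 95.5% for Ube2l6 and 98% for Usp18. By expected counts that share was 58.1% for Uba7, 99.6% for Ube2l6, 95.3% for Herc6 and 99.7% for Usp18, against 40.0%, 98.1%, 85.5% and 99.0% by TPM. The mean retained-intron share by expected counts was 32.0% for Uba7 and 4.63% for Herc6, against 48.3% and 13.4% by TPM. Genes 2-fold apart numbered 528, 5481 with no filter, and 194 where the mean count had to reach 100. Genes at the level line numbered 1193 at 100 TPM, 6015 at 10 TPM and 250 at 500 TPM. The strict motif was in 3.94% of gene promoters, in 3.45% with the 250 bases before the start alone and in 4.29% for genes at 1 TPM or more. With either library left out, levels ran from 3088 to 3151 TPM for Isg15, 511 to 706 for Usp18, 326 to 367 for Ube2l6, 170 to 193 for Uba7 and 156 to 184 for Herc6. Depth did not limit the 5 levels, each on at least 11457 counts, but short transcripts with few counts limit the transcript shares.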
